A study of Mus musculus with 8 samples.

Results

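The 10 genes described here encode neuronal splicing and RNA-binding regulators of 4 families: Nova1 and Nova2; Rbfox1, Rbfox2 and Rbfox3; Elavl2, Elavl3 and Elavl4; and Ptbp1 and Ptbp2. They were taken by gene name from the 34299 genes of the deposited count table, and all 10 were present and passed the filter on low counts in every comparison. The study sequenced polyadenylated RNA of whole mouse brain. It compared wild-type animals (WT) with Cav1 knockouts (KO), which lack caveolin 1, the coat protein of plasma membrane caveolae. Fetal brain of gestation day 15 gave 3 WT and 3 KO libraries, and aging brain of week 70 gave 2 further KO libraries. The labels give no strain, sex or further description of the knockout allele, and state biological replication for the fetal groups only. No WT brain of week 70 was analysed here, so that the age comparison is within the knockout, and genotype and age differ together between the week 70 KO and the day 15 WT brains. The genes were chosen by name, and the families had been selected on earlier results of these same libraries, their differences between the groups. Their values are therefore a description, with no independent evidence of a direction.

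Each of these proteins binds short motifs in RNA and changes how transcripts are spliced, polyadenylated, stabilised or translated. NOVA proteins bind clusters of a short motif near alternative exons of synaptic genes. RBFOX proteins bind GCAUG in introns and regulate neuronal exons, and RBFOX3 is the antigen of the NeuN antibody, a marker of postmitotic neurons. The neuronal ELAVL (Hu) proteins bind U-rich stretches and stabilise or splice transcripts of differentiating neurons. PTBP1 and PTBP2 repress exons through pyrimidine-rich tracts. PTBP1 is the form of progenitors and non-neuronal cells, PTBP2 follows it in young neurons, and mature neurons lower PTBP2 in turn. In the known circuit, the microRNA miR-124 represses Ptbp1, and PTBP1 promotes skipping of a short Ptbp2 exon, which exposes the Ptbp2 transcript to decay.

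Because the results turn on differences between paralogs, stretches of coding sequence are shown for 3 pairs whose ratio differed between the fetal genotypes. They were read from GENCODE M21 transcripts (GRCm38), with positions counted from the A of the start codon. All coordinates below are of that annotation. The submitters' processing notes name both GRCm38 and GRCm39, and the count table itself gives none. Capitals mark the bases that differ from the partner named with them. In each of these 3 pairs the member with the lower fetal KO level against WT carries the more G- and C-rich sequence. They are not the only pairs whose ratio differed. Elavl4 and Elavl2, described below and not shown here, also did, and their transcripts differ by only 0.4 percentage points in GC content.
Nova1 coding bases 535 to 654, against Nova2: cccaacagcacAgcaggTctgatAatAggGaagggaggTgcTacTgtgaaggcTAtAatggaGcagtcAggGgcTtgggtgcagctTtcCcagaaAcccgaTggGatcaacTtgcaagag
Nova2 coding bases 604 to 723, against Nova1: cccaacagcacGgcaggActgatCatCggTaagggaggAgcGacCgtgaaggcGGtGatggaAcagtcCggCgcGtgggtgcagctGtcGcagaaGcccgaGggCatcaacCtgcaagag
Elavl2 coding bases 994 to 1113, against Elavl3: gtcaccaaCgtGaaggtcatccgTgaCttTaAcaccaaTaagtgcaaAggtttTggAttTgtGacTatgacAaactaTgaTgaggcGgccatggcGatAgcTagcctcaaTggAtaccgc
Elavl3 coding bases 928 to 1047, against Elavl2: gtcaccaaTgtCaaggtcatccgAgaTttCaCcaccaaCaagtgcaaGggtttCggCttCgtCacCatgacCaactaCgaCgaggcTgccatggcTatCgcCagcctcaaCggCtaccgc
Ptbp1 coding bases 1123 to 1242, against Ptbp2: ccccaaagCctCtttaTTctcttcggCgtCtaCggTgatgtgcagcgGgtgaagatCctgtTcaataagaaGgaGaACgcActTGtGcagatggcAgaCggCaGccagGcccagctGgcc
Ptbp2 coding bases 1054 to 1173, against Ptbp1: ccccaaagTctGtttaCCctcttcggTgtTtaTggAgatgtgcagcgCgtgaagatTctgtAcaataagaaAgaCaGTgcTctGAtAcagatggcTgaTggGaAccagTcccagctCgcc
Each window is the most similar stretch of 120 bases without a gap in the alignment of its pair. Within these 120 bases, 21 differed between Nova1 and Nova2, 22 between Elavl2 and Elavl3 and 25 between Ptbp1 and Ptbp2. GC content of the window was 53.3% in Nova1 and 63.3% in Nova2, 46.7% in Elavl2 and 55.8% in Elavl3, and 56.7% in Ptbp1 and 50% in Ptbp2. Over all coding bases that aligned without a gap, the Nova pair was 69.0% identical (1444 bases). The Elavl2 and Elavl3 pair was 73.5% identical (1083 bases) and the Ptbp pair 70.4% (1589 bases). The longest run of identical coding bases between paralogs of any family was 29, in Rbfox1 with Rbfox2 and in Elavl3 with Elavl4, and it was 14 to 17 in the 3 pairs shown.

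The short exon at which PTBP1 acts on Ptbp2 lies in a region that the paralogs share, and the aligned Ptbp1 exon is of the same length. Both are shown in the sense of their gene, in lower case throughout because no base is singled out.
Ptbp1 exon, chr10:79862014-79862047, plus strand: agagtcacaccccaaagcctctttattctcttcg
Ptbp2 exon, chr3:119724612-119724645, minus strand: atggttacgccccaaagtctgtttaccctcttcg
Each exon is 34 bases long, which is not a multiple of a codon. GENCODE M21 places it in 4 of 16 annotated Ptbp1 transcripts and in 3 of 13 annotated Ptbp2 transcripts. The counts were made per gene, so inclusion of these exons was not measured here.

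Total counts were 19414747 to 20833397 in WT day 15, 14110031 to 15245283 in KO day 15 and 18924304 to 20203233 in KO week 70. The fetal KO libraries were all shallower than the WT ones. The labels record no batch, so that depth and genotype cannot be told apart. The counts of the 10 members ran from 392 to 15834 per library. Cav1 itself had 218 to 367 counts in WT, 0 to 3 in fetal KO and 1 and 5 at week 70. WT replicate 1 stood apart by genes of fibroblasts and meninges, with 4382 summed normalised CPM over 5 markers against 278 and 477 in the other WT libraries. It was also higher in 5 skeletal muscle markers (53.1 against 9.73 and 10.1) and in the microglial marker Tmem119 (15.1 against 1.75 and 2.66). Normalised CPM is the count scaled to a common library size, after TMM scaling. The week 70 libraries differed in Xist (525 and 0.276 normalised CPM) and in the Y-linked Ddx3y (0 and 78.4), whereas the 6 fetal libraries had Xist at 2739.9 CPM or more and Ddx3y at 0.151 or less. The 2 week 70 libraries were thus not repeats of the same RNA. By these genes week 70 replicate 2 had a male pattern, and week 70 replicate 1 and the 6 fetal libraries a female pattern. Sex therefore differed within week 70 and in both comparisons across age, and its part in the values was not tested. Fold changes also followed the GC content of the transcript. At day 15 the median log2 difference of KO minus WT over all tested genes went from 0.72 below 40% GC to -0.67 at 60% and above. For week 70 minus day 15 in KO it went from -1.66 to 0.83. For week 70 KO minus day 15 WT, which leaves out the fetal KO libraries, the range was narrower, from -0.61 to 0.19. Every member is therefore given also from a fit corrected for transcript length and GC content, named the corrected fit below.

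In fetal brain, 8 of the 10 regulators passed the test between KO and WT (edgeR quasi-likelihood test, adjusted p under 0.05), and 6 of these were lower in KO. Nova2, Rbfox1, Rbfox2, Rbfox3, Elavl3 and Ptbp1 were lower, Elavl2 and Ptbp2 were higher, and Nova1 and Elavl4 did not pass. Of all 19147 genes tested, 62.6% passed, 30.1% higher and 32.5% lower in KO, so that a share of members past the test is read against a large background. With upper-quartile scaling in place of TMM the split of all calls moved from 48.1% to 60.8% higher in KO, and the 8 members past the test kept their direction. In the corrected fit 6 members passed, where 51.1% of all genes did, 26.0% higher and 25.1% lower: Nova2, Rbfox1, Elavl4, Ptbp1 and Ptbp2 were lower and Rbfox2 was higher. Between week 70 and day 15 in KO all 10 passed, against 82.0% of 20000 genes (37.6% higher, 44.4% lower), with Nova2, Rbfox1 and Rbfox3 higher at week 70 and the other 7 lower. In the corrected fit 8 passed, against 78.7% (39.6% higher, 39.2% lower), and Nova2 and Elavl4 did not. Week 70 KO and day 15 WT differed in all 10, in both fits and in the same directions. Only Rbfox1 and Rbfox3 among the 10 were higher at week 70 there, where 36.7% of all genes were higher and 41.9% lower, 78.6% in sum. With the correction 76.7% passed, 38.8% higher and 37.9% lower. The median log2 difference of the members was -0.48 for fetal KO against WT, -0.86 for age in KO and -1.28 for week 70 KO against fetal WT, and that of all tested genes was 0.03, -0.19 and -0.16. The corrected medians of the members were -0.23, -0.70 and -0.92, and those of all genes 0.03, -0.04 and -0.03. The fetal KO libraries enter the genotype and the age comparison, and the week 70 libraries enter both comparisons across age, so the comparisons are not independent of each other.

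**Figure D1:**
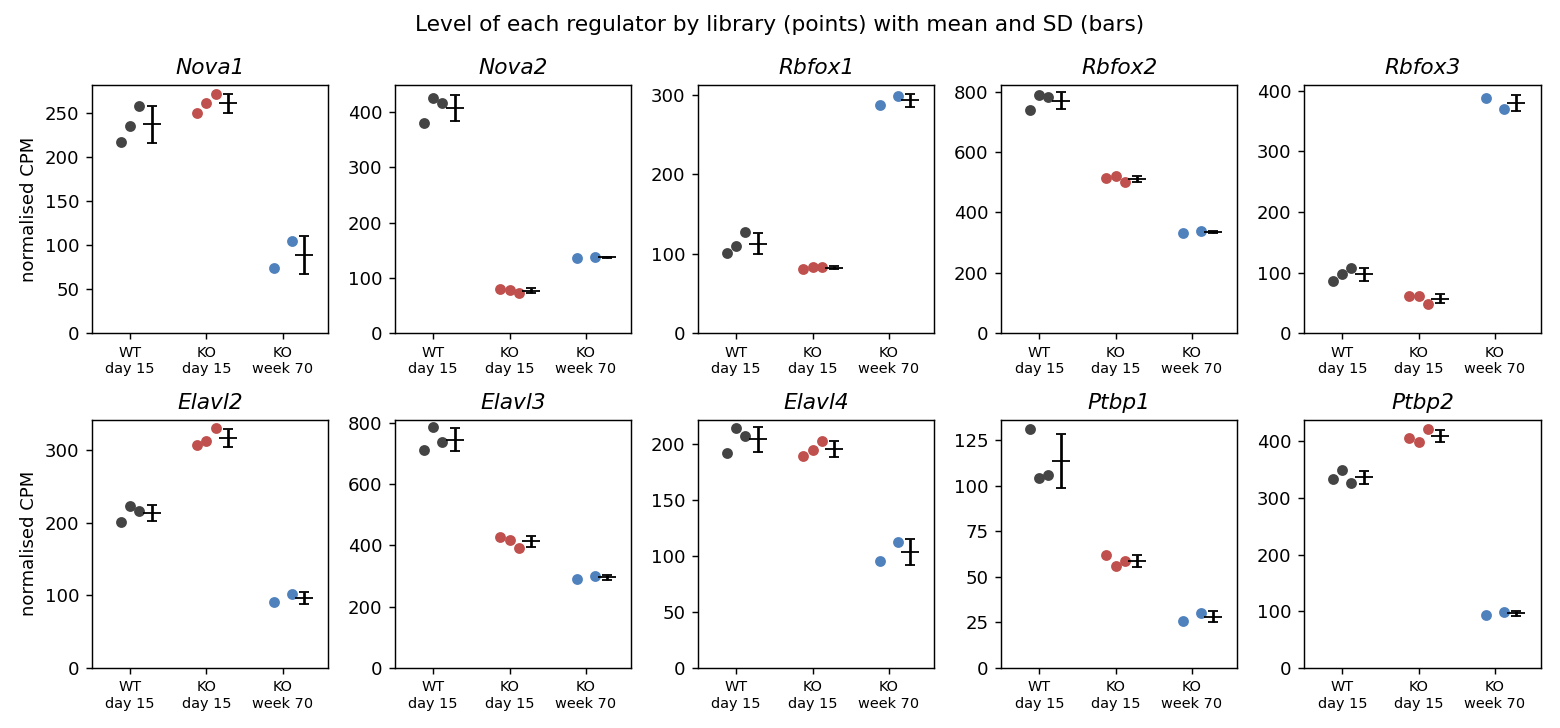
Normalised CPM (vertical axis, from 0) of each regulator in every library (points) for WT day 15, KO day 15 and KO week 70, with mean and SD beside the points. Rbfox1 and Rbfox3 sit highest at week 70, Nova2 is lowest in the fetal KO libraries, and Ptbp1 and Ptbp2 are lowest at week 70.

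Nova2 had the largest fetal genotype difference of the 10 regulators. NOVA2 is the paralog of most cortical neurons, and its targets include transcripts of axon guidance. The gene (ENSMUSG00000030411) lies at chr7:18925888-18965319 on the plus strand. Normalised CPM of Nova2 was 379.9, 425 and 417 in the WT replicates, 80.1, 78.2 and 72.7 in fetal KO, and 136 and 138 at week 70. No library of any group came near those of another group. The KO level was 5.15-fold below WT (log2 difference -2.36, SE 0.072, adjusted p = 1.39e-08), which ranked 120 from the lowest among the 19147 genes tested. Among 1565 genes within 1 percentage point of its GC content of 56.3%, whose median was -0.40, Nova2 was at percentile 1.15. The corrected fit gave -1.34 (SE 0.0741, adjusted p = 3.47e-07), or 2.53-fold below WT. The 6 corrected fits that each left out 1 library gave -1.41 to -1.27, and all passed. Against fetal WT, the week 70 KO level was lower by a similar amount without and with the correction (log2 -1.59 and -1.36). Between the ages in KO the value was 0.73 without the correction and -0.04 with it, and the latter did not pass (adjusted p = 0.634). Nova2 overlaps an opposite-strand noncoding gene, Gm26821, which is not used here.

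Nova1, the paralog with an essential role in brainstem and spinal cord neurons, did not follow Nova2. The gene (ENSMUSG00000021047) lies at chr12:46694517-46818929 on the minus strand. Its normalised CPM was 217, 235 and 258 in WT and 249.6, 261 and 271 in fetal KO. These ranges overlapped, and the log2 difference of 0.18 did not pass (SE 0.0761, adjusted p = 0.0637), nor did the corrected value of -0.07 (adjusted p = 0.459). Without WT replicate 3 the uncorrected value of 0.23 passed (adjusted p = 0.0292). Week 70 was lower, at 73.7 and 104 CPM, with the widest spread between the 2 aged libraries of all members. The fall with age in KO was -1.65 on the log2 scale, and -0.69 in the corrected fit, both past the threshold. Exons of Nova1 overlap those of a same-strand gene model, Gm33869, which is not used here.

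Per kilobase of merged exons, the only scale on which levels of different genes are compared here, Nova2 exceeded Nova1 in each WT library, with ratios of 1.83, 1.89 and 1.69. In fetal KO the order was reversed, with ratios of 0.335, 0.313 and 0.28. At week 70 the ratios were 1.93 and 1.38. Nova2 thus made up 62.8% to 65.4% of the per-kilobase level of the pair in WT, 21.9% to 25.1% in fetal KO and 58.0% and 65.9% at week 70. The summed normalised CPM of the pair was 644 ± 41.5 in WT (SD, n = 3), 338 ± 7.13 in fetal KO (n = 3) and 226 ± 22.7 at week 70 (n = 2). The genotype difference of Nova2 minus that of Nova1 was -2.54 on the log2 scale, and -1.27 in the corrected fit. The transcripts differ by 17.8 percentage points in GC content, and the last positions of their codons are 86.4% G or C in Nova2 and 42.7% in Nova1.

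**Figure D2:**
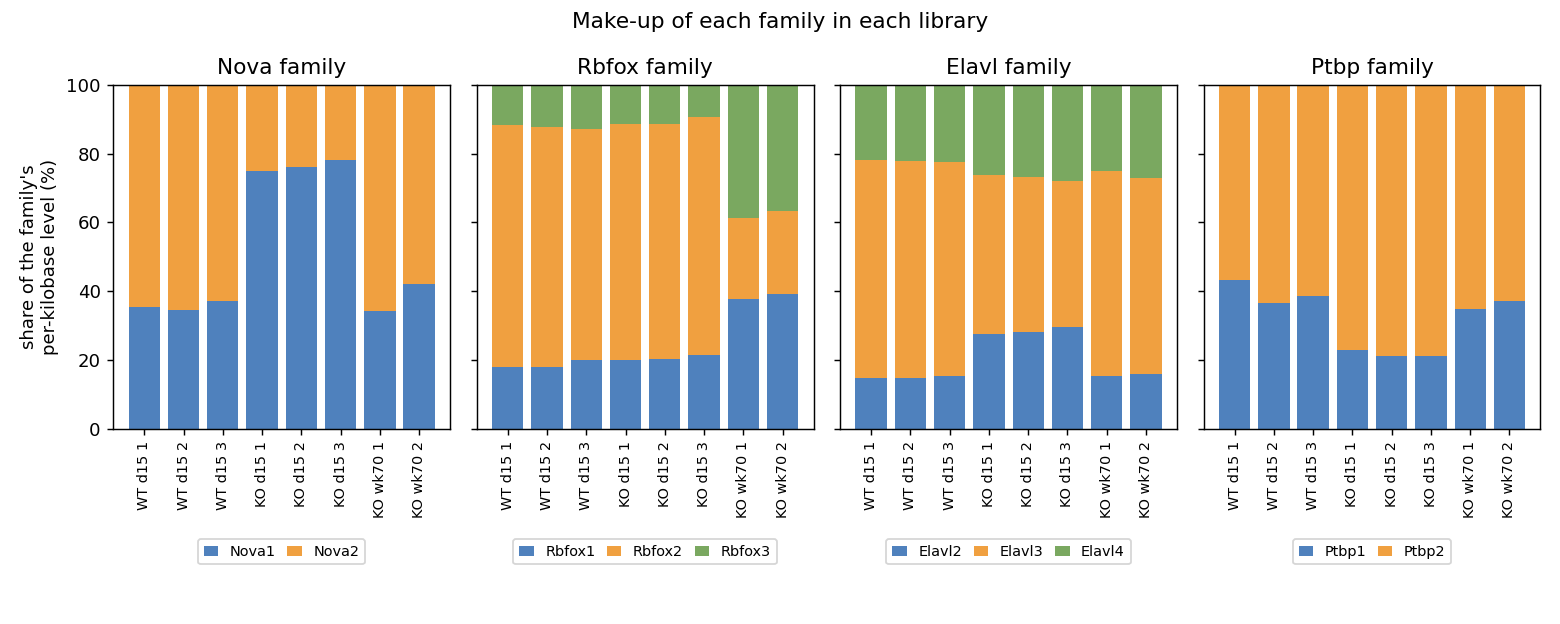
Share of each family's summed per-kilobase level (percent, vertical axis) held by each paralog, 1 stacked bar per library. In fetal KO the Nova2 share is 21.9% to 25.1% and the Ptbp1 share 21.1% to 22.8%, and at week 70 Rbfox1 and Rbfox3 each hold 36.8% to 39.3% of the Rbfox total.

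Rbfox3 and Rbfox1 carried the largest rises between the ages, and Rbfox2 fell. Rbfox3 (ENSMUSG00000025576, chr11:118489762-118911597, minus strand), whose product is NeuN, had 86.4, 97.4 and 108 normalised CPM in WT and 61.1, 61.4 and 48.2 in fetal KO. It had 389 and 371 at week 70. The 3 groups did not overlap, and week 70 was far above both fetal groups. Rbfox3 rose 6.23-fold between day 15 and week 70 in KO (log2 2.64, SE 0.11, adjusted p = 5.03e-09) and 3.36-fold in the corrected fit. Against fetal WT the week 70 level was 3.87-fold higher, and 3.13-fold in the corrected fit. The fetal genotype difference of -0.73 passed (adjusted p = 1.33e-04), but with the correction it was -0.09 and did not (adjusted p = 0.459). Without WT replicate 1 the corrected value was -0.19 and passed (adjusted p = 0.0282). Among 1018 genes of like GC content (58.6%), whose median was -0.46, it was at percentile 37.2.

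Rbfox1 (ENSMUSG00000008658, chr16:5885355-7411526, plus strand), which regulates exons of channels and synaptic proteins, went the same way with age. Its normalised CPM was 100.5, 110 and 127 in WT, 80.6, 83.0 and 83.8 in fetal KO, and 287 and 299 at week 70. The rise in KO was 3.31-fold (log2 1.73, SE 0.0807, adjusted p = 1.12e-08), and 4.27-fold in the corrected fit. At day 15 Rbfox1 was lower in KO by -0.41 (SE 0.0838, adjusted p = 1.61e-03) and by -0.61 in the corrected fit. Its fetal difference was thus larger after the correction, and the 6 corrected fits with 1 library left out all passed.

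Rbfox2 (ENSMUSG00000033565, chr15:77078990-77307004, minus strand), the paralog that is also widely expressed outside neurons, moved against the other two with age. It had 738, 790.3 and 784 normalised CPM in WT, 513, 522 and 502 in fetal KO, and 333 and 338 at week 70. The groups stepped down without overlap. The age difference in KO was -0.71, and -1.20 in the corrected fit, both past the threshold. The fetal difference of -0.55 (SE 0.0589, adjusted p = 1.55e-05) changed sign in the corrected fit, to 0.16 (SE 0.0615, adjusted p = 0.0448), and only 1 of the 6 corrected fits with a library left out passed, the one without WT replicate 2.

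Without the correction, the shares of the Rbfox genes were close in the fetal genotypes and different at week 70. Rbfox2 held 67.0% to 70.6% of the per-kilobase level of the family in WT and 68.5% to 69.3% in fetal KO, but 23.6% and 23.9% at week 70. Rbfox3 per kilobase was 0.164, 0.172 and 0.193 of Rbfox2 in WT, 0.167, 0.165 and 0.135 in fetal KO, and 1.64 and 1.54 times Rbfox2 at week 70. The age difference of Rbfox3 minus that of Rbfox2 was 3.35 on the log2 scale, and 2.95 in the corrected fit. That of Rbfox1 minus Rbfox2 was 2.44 and 3.29. Between the fetal genotypes, Rbfox1 minus Rbfox2 was 0.14, but -0.77 in the corrected fit, and Rbfox3 minus Rbfox2 was -0.18 and -0.25. The week 70 order also depended on length scaling: without it the mean share was 29.1% for Rbfox1 and 33.3% for Rbfox2. The summed CPM of the family was 980.5 ± 49.4 in WT (SD, n = 3), 652 ± 16.5 in fetal KO (n = 3) and 1008 in both week 70 libraries. In bulk tissue, a higher level per cell and a larger share of the cells that express a gene cannot be told apart. The summed CPM of 7 mature neuron markers (Snap25, Syt1, Camk2a, Grin1, Slc17a7, Gad1 and Gad2) was 595 to 637 in fetal KO and 12959 and 14084 at week 70, all 7 higher. Their part in the rise of Rbfox1 and Rbfox3 was not tested.

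**Figure D3:**
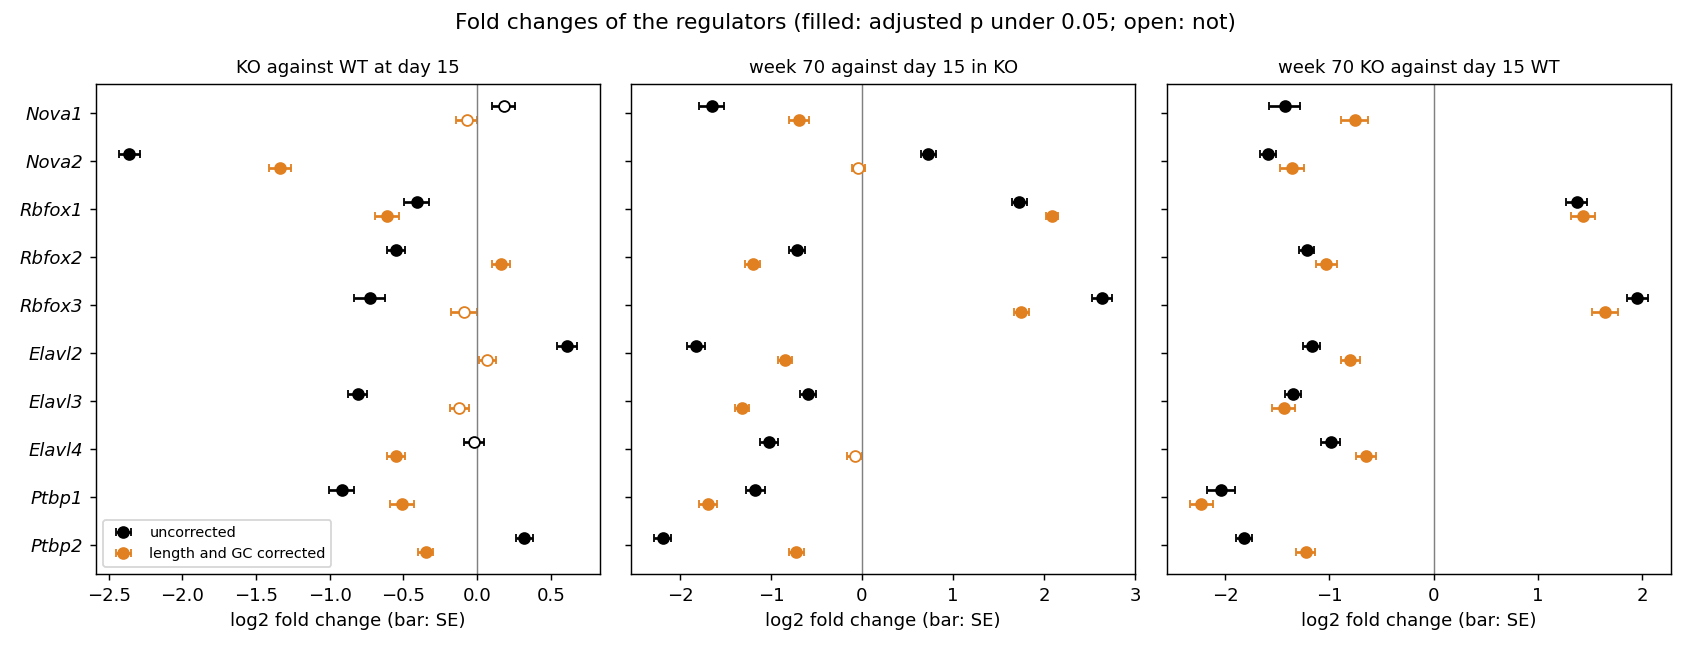
Log2 fold change with its SE for each regulator in the 3 comparisons, from the fit without (black) and with (orange) correction for transcript length and GC content; filled points passed an adjusted p of 0.05. At day 15 the sign of Rbfox2, Ptbp2 and Nova1 differs between the fits, and for week 70 KO against day 15 WT every pair of points lies on the same side of 0.

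Without the correction, Elavl3 was lower and Elavl2 higher in fetal KO, Elavl4 did not pass, and all 3 fell with age. Elavl3 (HuC; ENSMUSG00000003410, chr9:22015005-22052023, minus strand), expressed from newborn to mature neurons, had 713, 786 and 737 normalised CPM in WT, 429, 419 and 393 in fetal KO, and 290.1 and 300.1 at week 70. WT was highest and week 70 lowest, without overlap. The fetal difference was -0.81 (SE 0.0646, adjusted p = 1.72e-06), and -0.12 in the corrected fit, which did not pass (adjusted p = 0.165). Without WT replicate 1 the corrected value of -0.18 passed (adjusted p = 0.0221). Between the ages in KO the correction moved the value the other way, from -0.59 to -1.32, and both passed. Elavl3 shares exons with a same-strand gene model, Gm49318, which is not used here.

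Elavl2 (HuB; ENSMUSG00000008489, chr4:91250763-91400785, minus strand), also found in early neurons, was higher in fetal KO. Its normalised CPM was 201, 223 and 216 in WT, 307, 313 and 330.1 in fetal KO, and 90.2 and 102 at week 70. The fetal KO libraries were the highest of the 3 groups. The genotype difference of 0.61 (SE 0.0667, adjusted p = 1.80e-05) lay near the median of 0.67 over 695 genes of like GC content (38.5%), at percentile 42.0. With the correction it was 0.07 (adjusted p = 0.342). The fall with age in KO was -1.82, and -0.84 in the corrected fit.

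Elavl4 (HuD; ENSMUSG00000028546, chr4:110203722-110351909, minus strand), which promotes neurite growth, had overlapping fetal levels of 192, 214 and 207 normalised CPM in WT and 189, 195 and 203 in KO. The log2 difference of -0.02 did not pass (adjusted p = 0.769). Genes of like GC content (38.9%) had a median of 0.65, and Elavl4 was at percentile 7.45 of these 805 genes. In the corrected fit it was lower in KO by -0.55 (SE 0.0599, adjusted p = 2.77e-05), although the CPM overlapped. Week 70 stood below both fetal groups, at 95.1 and 112 CPM, with an age difference in KO of -1.02 that did not pass in the corrected fit (-0.08, adjusted p = 0.372). Against fetal WT the week 70 difference passed in both fits, at -0.99 and -0.65.

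Per kilobase, Elavl2 was 0.234, 0.235 and 0.243 of Elavl3 in WT, 0.593, 0.619 and 0.695 in fetal KO, and 0.258 and 0.281 at week 70. The week 70 ratios were thus closer to WT than to fetal KO. Elavl3 and Elavl2 differ by 15.7 percentage points in GC content, and the difference between their genotype effects was -1.42 without and -0.19 with the correction. Elavl4 and Elavl2 differ by only 0.4 percentage points. Between those 2 genes the genotype effects differed by -0.63 without and -0.62 with the correction, which moves genes of like GC content and length alike.

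Ptbp1 was lower and Ptbp2 higher in fetal KO without the correction, Ptbp2 was lower with it, and both fell with age. Ptbp1 (ENSMUSG00000006498, chr10:79854427-79864771, plus strand), the progenitor form, had 131, 104 and 106 normalised CPM in WT, 62.0, 55.7 and 58.4 in fetal KO, and 25.8 and 30.1 at week 70. Levels stepped down from WT to fetal KO to week 70 with no overlap. The fetal KO level was 1.89-fold below WT (log2 -0.92, SE 0.0852, adjusted p = 5.34e-06), and 1.42-fold in the corrected fit (adjusted p = 3.00e-04). WT replicate 1 was the highest library and is the one rich in fibroblast genes, and without it the log2 difference was -0.82 (adjusted p = 1e-06). Between the ages in KO, Ptbp1 fell by 1.17 on the log2 scale, and by 1.69 in the corrected fit. Against fetal WT, the week 70 level was 4.11-fold lower, the largest fall of the 10 members in that comparison.

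The Ptbp1 value carries limits of annotation. Exons of Ptbp1 overlap those of Plppr3, a neuronal phospholipid phosphatase-related gene on the opposite strand, whose counts were 8227 to 8420 in WT, 6075 to 6815 in fetal KO and 711 and 887 at week 70. Whether the counting used strand is not given in the sources used here, so reads of the overlap cannot be told apart. A processed pseudogene, Gm4900, is 95.2% identical to Ptbp1 and took 0.682% to 6.1% of the counts of the pair in each library.

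Ptbp2 (ENSMUSG00000028134, chr3:119718742-119784466, minus strand), the form of young neurons, had 334, 349 and 327 normalised CPM in WT, 407, 399.8 and 422 in fetal KO, and 93.2 and 99.2 at week 70. Every fetal KO library was above every WT library, and week 70 was lowest. The fetal difference was 0.32 (SE 0.0593, adjusted p = 7.97e-04) and turned to -0.35 in the corrected fit (SE 0.0537, adjusted p = 3.16e-04). Ptbp2 has the lowest GC content of the 10, at 34.2%. The correction is a smooth over all tested genes, few of which lie near that value. Only 113 tested genes lie within 1 percentage point of it. Their median was 0.96, and Ptbp2 was at percentile 10.6 of them. With age in KO, Ptbp2 fell 4.57-fold, the largest fall of the members in that fit, and 1.65-fold in the corrected fit. Against fetal WT the fall was 3.54-fold and 2.35-fold.

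Per kilobase, Ptbp2 was 1.31, 1.73 and 1.60 times Ptbp1 in WT, 3.39, 3.71 and 3.74 times in fetal KO, and 1.86 and 1.70 times at week 70. The fetal KO ratios were above those of the other groups, which lay near each other. The genotype effect of Ptbp1 minus that of Ptbp2 was -1.24, but -0.16 in the corrected fit, and the pair differs by 19.5 percentage points in GC content. The summed CPM of the pair was 451 ± 16.4 in WT and 468 ± 12.7 in fetal KO (SD, n = 3 each), and 124 ± 7.3 at week 70 (n = 2). The 8 progenitor markers (Sox2, Pax6, Nes, Hes5, Vim, Eomes, Neurog2 and Btg2) were all lower in fetal KO, where 32.5% of all tested genes were. In the corrected fit 6 of the markers were lower, against 25.1% of all genes. The summed CPM of the 8 markers was 1174 to 1317 in WT, 473 to 511 in fetal KO and 231 and 259 at week 70, and none was at 0 in any library. Their part in the lower Ptbp1 level was not tested.

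**Figure D4:**
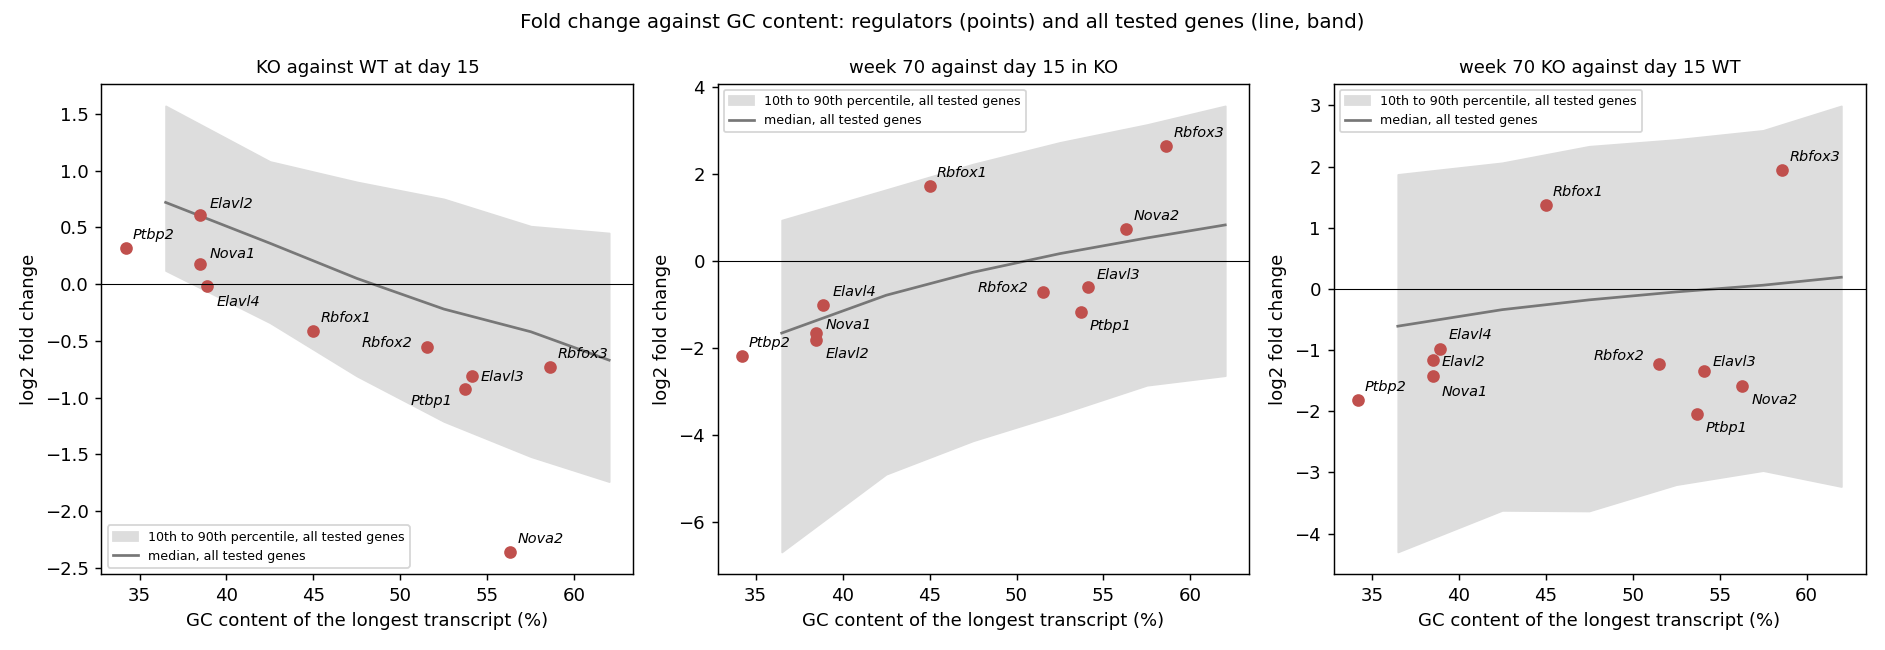
Log2 fold change of each regulator (points) against GC content of its longest transcript (percent), with the median (line) and the 10th to 90th percentile (band) of all tested genes in GC bins drawn at the bin centres. At day 15 Nova2 lies far below the band of genes of its GC content, and the line slopes down at day 15, up with age in KO, and least for week 70 KO against day 15 WT.

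Genes of the PTBP1 circuit are known to act around this switch. REST, with its corepressor RCOR1, represses miR-124 genes outside neurons, and transcripts of Dlg4 (the synaptic scaffold PSD-95) and Flna (filamin A) contain exons that PTBP proteins control. All 6 of these genes passed at day 15, where 62.6% of all tested genes did. The miR-124 host transcripts Mir124a-1hg (log2 0.41) and Mir124-2hg (0.65) were higher in KO, and Rest (-0.40), Rcor1 (-0.47), Dlg4 (-0.89) and Flna (-0.43) were lower. In the corrected fit 3 passed, where 51.1% of all genes did: Mir124a-1hg (0.81) was higher, Dlg4 (-0.53) was lower and Flna (0.48) changed sign. Mir124a-1hg per kilobase was 2.20, 2.96 and 2.77 times Ptbp1 in WT, 6.28, 6.85 and 6.53 times in fetal KO, and 2.21 and 1.65 times at week 70. From day 15 to week 70 in KO, Dlg4 rose 6.45-fold and the other 5 fell, among them Flna (8.8-fold lower) and Mir124a-1hg (7.7-fold lower). The corrected fit gave the same calls. Of all genes, 82.0% passed in that comparison, and 78.7% with the correction. Mature miR-124 was not measured by this assay.

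Relatives with wide expression were followed beside the members. Elavl1 (HuR, the ubiquitous ELAVL protein) was lower in fetal KO by -0.73 (SE 0.068, adjusted p = 5.19e-06), and by -0.51 in the corrected fit. Its age difference in KO passed in neither fit (-0.15 and -0.07), unlike the fits of Elavl2 and Elavl3, although the difference between these genes was not tested. Ptbp3, the paralog best known from blood cells, did not pass at day 15 (0.15, and -0.09 in the corrected fit). With age in KO it was lower by -0.86, but the corrected value of 0.06 did not pass. Exons of Elavl1 overlap those of Ccl25 on the opposite strand, which had 296 to 381 counts in WT and 361 to 444 in fetal KO. Exons of Ptbp3 overlap those of an opposite-strand pseudogene. As for Ptbp1, reads of these overlaps cannot be told apart.

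The order of the 3 groups can be stated for each member from the uncorrected fits. Nova2, Rbfox2, Elavl3, Elavl4 and Ptbp1 were highest in fetal WT. Nova1, Elavl2 and Ptbp2 were highest in fetal KO, and Rbfox1 and Rbfox3 at week 70. Neighbours in that order differed past the threshold for every member except Nova1 and Elavl4, whose fetal groups did not. With the correction the fetal differences of Rbfox2 and Ptbp2 changed sign (0.16 and -0.35), and those of Rbfox3, Elavl2 and Elavl3 did not pass. The corrected age differences of Nova2 and Elavl4 in KO did not pass either (-0.04 and -0.08). These orders therefore hold for the uncorrected levels only. In counts of libraries, 8 of the 10 members had fetal genotypes that did not overlap, where 68.4% of all tested genes did not, and all 10 did not overlap between the ages in KO, against 87.9%.

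The genes whose pattern over the 8 libraries was most like that of each member were found by the root mean square difference of gene-centred log2 CPM, among 21263 genes. Genes with the symbol of a predicted gene, clone, pseudogene or mitochondrial gene were not taken as matches. Zmiz1 (0.105), a transcriptional coregulator, and Prr12 (0.12) were closest to Nova2. Zmiz1 had 563, 583 and 580.5 normalised CPM in WT, 122, 112 and 102 in fetal KO, and 164 and 174 at week 70. Magi1 (0.0256) and Mycbp2 (0.038) were closest to Elavl4, and Hdac2 (0.0439) and Zfp326 (0.0452) to Ptbp2. Tmem179 (0.0551) and Camk2n2 (0.0766) were closest to Rbfox3, and Fnbp1 (0.0524) and Hecw2 (0.0679) to Rbfox1. Dido1 (0.0395) and Gtf3c4 (0.0532) were closest to Rbfox2, Pag1 and Smad1 (0.0604 each) to Elavl3, and Lin7c (0.0457) and Jpx (0.0571) to Elavl2. Socs4 and Cstf3 (0.0918 each) were closest to Nova1, and Prrc2c (0.108) and Bend3 (0.118) to Ptbp1. Among the members themselves, Rbfox2 and Elavl3 were the nearest pair (0.117), and no member came closer to Nova2 than Elavl3 (0.712). All likeness values share the same 8 libraries and their depth and GC trends.

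Other regulators give the setting of the 10 genes. Their counts are to be read against the shares of all genes past the test, given above. Of 19 other splicing regulators, 18 were tested at day 15, 4 were higher and 9 lower in KO, with a median of -0.21. With the correction 4 were higher and 3 lower, with a median of 0.04. Tra2a, an activator of exon inclusion, rose 1.71-fold, and Khdrbs1 (Sam68), a repressor and activator of neuronal exons, was 2.12-fold lower. Both passed in the corrected fit (log2 0.69 and -1.25). Mbnl1 also rose (0.61), and Srrm4, the activator of neuronal microexons, was lower by -0.68, but its corrected value of 0.10 did not pass. With age in KO, 5 rose and 9 fell, and 7 and 11 in the corrected fit. Mbnl2, which drives postnatal splicing patterns, rose 5.31-fold, Khdrbs3 rose 2.38-fold and Tra2a fell 6.88-fold. Mbnl3 had 31 to 68 counts in fetal KO and 0 and 1 at week 70. Esrp2, also among the 9 that fell, had only 4, 35 and 12 counts in fetal KO and 4 and 1 at week 70. Its CPM overlapped between the ages. Against fetal WT, 5 of 18 tested were higher and 11 lower at week 70, with Mbnl1 among the former and Srrm4 among the latter. The corrected fit gave 6 higher and 11 lower.

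Of 16 other regulators of mRNA translation, stability or transport, 4 were higher and 9 lower in fetal KO, with a median of -0.24. After the correction 3 were higher and 7 lower, with a median of -0.18. Msi1, a translational regulator of neural stem cells, was 2.46-fold lower (log2 -1.30, and -0.68 in the corrected fit). Fxr2 was lower by -0.98 and its relative Fxr1 higher by 0.52, where the corrected fit gave -0.37 and -0.16, the latter not past the threshold. Cpeb1, a regulator of cytoplasmic polyadenylation, had only 54 to 75 counts in the fetal libraries and was higher in KO by 0.57. With age in KO, 5 rose and 6 fell, and 9 and 6 in the corrected fit. Cpeb1 rose 14-fold and Cpeb3 rose 4.25-fold. The fetal regulators Igf2bp1 and Igf2bp2 had 715 to 877 and 784 to 965 counts in fetal KO, and 0 and 3, and 23 and 6 counts at week 70. Against fetal WT, 3 of the 16 were higher and 9 lower at week 70, and 6 and 7 in the corrected fit.

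Markers of cell types moved with the groups as well. Counts of markers past the test are likewise read against the shares of all genes given above. At day 15, 3 of 6 immature neuron markers were lower and 2 higher in KO, with summed CPM of 4268 to 4614 in WT and 3668 to 3721 in KO. Of the 7 mature neuron markers, 4 were lower and 1 higher. All 5 endothelial markers were lower (150.3 to 209.8 against 44.8 to 57.0 summed CPM), as were 3 of 5 fibroblast markers. Among the 5 microglial markers 3 were lower and 1, P2ry12, was higher. Among the 5 erythroid markers 4 were higher and 1, Hbb-y, was lower (summed CPM of all 5, 895 to 1008 against 3023 to 3741). Of 5 astrocyte markers 2 were lower and 1 higher, of 5 tested oligodendrocyte markers 2 were lower and 2 higher, and of 4 tested muscle markers 1 was lower. Once corrected, 3 immature neuron markers were lower and 0 higher, 2 mature neuron markers were lower and 1 higher, 2 microglial markers were lower and 0 higher, and 2 oligodendrocyte markers were lower and 1 higher. The median log2 difference of the mature neuron markers was -0.66 without and -0.02 with the correction. Counts for the astrocyte, endothelial, fibroblast, erythroid and muscle markers were the same in both fits. The astrocyte marker called higher was not the same gene, however. It was Aqp4 without the correction (log2 0.68) and Gfap with it (0.94), and neither passed in the other fit. At week 70 against day 15 in KO, all 5 astrocyte, 6 oligodendrocyte, 5 microglial and 5 endothelial markers rose and all 6 immature neuron markers fell. Of the 8 progenitor markers 6 fell and 1, Sox2, rose, all 5 erythroid markers fell, 1 of 5 fibroblast markers rose and 2 fell, and 2 of 3 tested muscle markers rose and 1 fell. In the corrected fit 1 fibroblast marker fell and 1 muscle marker rose and 0 fell, and the other counts were the same. Summed CPM at week 70 was 5491 and 5924 for astrocytes and 12753 and 12863 for oligodendrocytes, where fetal KO had at most 123 and 80.8. The part of cell composition in the values of the 10 regulators was not tested.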

How the data were processed

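Gene counts of 8 mouse whole-brain libraries were used as the authors deposited them, unnormalised and per gene. The submitters' processing notes name FastQC, cutadapt, Trimmomatic, HISAT2, featureCounts and edgeR and the builds GRCm38 and GRCm39, with no versions or order. Strand use and the handling of multiply matched reads are not given in the sources used here. Each comparison was fitted over all genes of its 2 groups with edgeR 4.0.16 (R 4.3.3), using filterByExpr, TMM scaling, the quasi-likelihood test and Benjamini-Hochberg adjusted p of 0.05, two-sided, with log2 fold changes and their standard errors. The corrected fit carried an offset from a smooth of each library's deviation on log2 length and GC content of the longest transcript (mgcv 1.9.3, GENCODE M21, which matched 97.3% of the gene IDs). Alternatives were other scalings and filters, DESeq2 1.42.0, all 8 libraries in 1 fit, a replicate block and each library left out. Leaving out libraries in the corrected fit was added after seeing the data. The fits were also run on simulated counts in which far fewer genes changed than passed here. That run does not show how the fits behave on these data. Similar pseudogenes were searched with minimap2 2.31. A count of 3, the lowest level treated as detected, was 0.144 to 0.213 CPM.

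The members, the lists of related genes and the cell type markers were chosen with earlier results of these data known. A further marker of mature neurons is not reported here. Named genes were the members, Elavl1 and Ptbp3, the PTBP1 circuit genes, and from the lists of other regulators the 2 highest and 2 lowest log2 fold changes past the threshold in each comparison, plus the 2 genes most like each member. Plppr3, Gm4900 and the other overlapping genes were named for their position, Xist and Ddx3y to compare libraries, and Esrp1 and Esrp2 for their low counts.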

Additional observations from a re-analysis of the deposited data

How the results depend on the processing

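Other scalings, filters, DESeq2, the joint fit of 8 libraries and leaving out each library gave 8 or 9 members past the threshold at day 15 and 10 in both comparisons across age. The ninth was Nova1, with upper-quartile scaling, with the replicate block or without WT replicate 3. At day 15, 10744 to 12542 of all genes passed under the other scalings and DESeq2, and 10998 to 11365 with 1 library left out. Across age, 16345 to 16945 passed in KO under the other scalings and DESeq2, and 15312 to 15486 against fetal WT. Most tested genes thus passed as well. Upper-quartile scaling moved the median of all genes from 0.03 to 0.20 at day 15, from -0.19 to -0.44 for age in KO and from -0.16 to -0.29 for week 70 KO against day 15 WT. Elavl4, which did not pass, took a value of 0.15 under it, and -0.09 to 0.01 when libraries were left out. Correction for transcript length and GC content changed the sign of these day 15 values: Nova1 (-0.07), Rbfox2 (0.16), Ptbp2 (-0.35), Ptbp3 (-0.09), Rest (0.03), Flna (0.48), Srrm4 (0.10) and Fxr1 (-0.16). With the replicate block added to the correction they were -0.06, 0.17, -0.35, -0.09, 0.04, 0.48, 0.10 and -0.15. In that fit 5 members and 8827 of all genes passed. For age in KO, the correction gave Nova2 -0.04 and Ptbp3 0.06, and with the replicate block -0.04 and 0.01. In the corrected fits with 1 library left out, 5 to 7 members passed at day 15, where 8366 to 9238 of all genes did. Those fits gave, at day 15, -0.14, -0.12, -0.09, -0.08, -0.05 and -0.01 for Nova1, 0.11 to 0.21 for Rbfox2 and -0.42, -0.37, -0.35, -0.34 and -0.30 for Ptbp2. For Nova2 with age they gave -0.08, -0.06, -0.03 and 0.03. The cause of these shifts was not tested. The replicate number did not pair the fetal samples (correlations of same-numbered deviations -0.144, -0.169 and -0.146), and the replicate block alone gave 9 members and 11184 of all genes past the threshold at day 15, 14876 for age in KO and 13244 for week 70 KO against day 15 WT. Using the longest transcript, or no length scaling, moved 49 of 60 family shares by more than 1 SD. Without length scaling, Ptbp1 went from 39.4% to 25.2% in WT and from 21.7% to 12.5% in fetal KO, and Rbfox1 from 18.6% to 11.5% in WT. At week 70 Rbfox1 (29.1%) was then below Rbfox2 (33.3%). With no member below 392 counts in a library, counting depth limits Mbnl3, Igf2bp1 and Igf2bp2 at week 70, and Esrp1 and Esrp2 in all groups, rather than the members.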
